A study of Bos taurus with 7 samples.

Results

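The genes described here are enzymes that build the lipid barrier of keratinised epithelia, measured in the rumen epithelium of Holstein calves. They were chosen by gene symbol from a list of 10. ALOXE3 was not among the gene names of the array, so 9 genes remained, represented by 10 of the 15008 probes. All 9 passed the filter on dim probes and stood among 12570 tested genes. RNA from 7 calves was hybridised to 7 single-colour Agilent arrays, 1 calf per array. The HAY group (calves 9, 10 and 13, n = 3) was provided with forage and the CON group (calves 8, 11, 12 and 14, n = 4) was not. The design text mentions 3 weeks after weaning, and whether this dates the grouping or the sampling was not settled here. All calves belong to the same breed, and their ages and any other feed are not given per calf in the labels. The title of the series places the work in the weaning transition and names calf starter and ruminal pH beside forage. The comparison asks which genes differ between epithelia of calves with and without forage.

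The outer layers of a keratinised epithelium are sealed by ceramides, lipids made of a sphingoid base and a fatty acid. Serine palmitoyltransferase makes the base, elongases lengthen the fatty acid, ceramide synthases join them, and a desaturase completes the molecule. In human and mouse epidermis, ceramides with very long chains are stored as glucosylceramides and sphingomyelins, secreted, and set free again by hydrolases, while lipoxygenases oxidise the linoleate of acylceramides before these are tied to the cornified envelope. The rumen is lined by a stratified squamous epithelium with a cornified surface of the same general build.

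Each gene was read by a 60-base probe. For ELOVL1, 2 probes carried the symbol, and their sequences are shown, 5′ to 3′, because they do not read the same transcript by the annotation in the files. The first is annotated to the ELOVL1 mRNA and spans 279 bases of chromosome 3 (chr3:103236486-103236764 of UMD_3.1, plus strand), so that its 60 bases are not contiguous in the genome. The second lies at chr3:103216424-103216483, plus strand, and is described in the files as mediator complex subunit 8. They share no run of bases longer than 5 on the same strand. The first had the higher mean signal and stands for ELOVL1 below. The probes of ALOX12B (chr19:28330225-28330284, minus strand), of CERS3 (chr21:6420497-6420556, plus strand) and of DEGS1 (chr16:28088891-28088950, minus strand) are shown too, since the results turn on these genes. For CERS3 and DEGS1 only the first 30 of 60 bases are printed. Exon and UTR annotation of UMD_3.1 was not used here, and no base is in capitals because no motif was searched.
ELOVL1, mRNA probe: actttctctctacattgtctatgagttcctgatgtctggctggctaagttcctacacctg
ELOVL1, second probe: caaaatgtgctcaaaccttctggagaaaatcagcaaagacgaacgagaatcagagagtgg
ALOX12B: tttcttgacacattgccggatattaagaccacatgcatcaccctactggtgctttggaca
CERS3, first 30 bases: taagggtctgtattaccaagctaagtaagt
DEGS1, first 30 bases: cattatattaccactgtggtggatgttttc

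The values below are log2 signals relative to the 75th percentile of the array, so 0 is the level of that percentile and levels of different probes are not set against each other. On each array, 81.5 to 84.6% of spots exceeded background clearly. KRT5, KRT14 and KRT15, keratins of basal keratinocytes, and IVL and TGM3, genes of the cornified envelope, were well above background on all 7 arrays. So were 16 of the 20 tested suprabasal and cornified markers, but not KLK7, KRT4, LORICRIN and DSC1. LORICRIN cleared background in 1 of 3 HAY and 3 of 4 CON calves, and DSC1 in 1 of 3 and 2 of 4. Most markers of the labelled tissue were thus present. ACTA2 of smooth muscle, COL1A2 of fibroblasts, PECAM1 of endothelium and PTPRC of leukocytes were also well above background on all 7 arrays. In RNA of a whole tissue, fewer cells of a type and less RNA per cell cannot be told apart. The HAY arrays lay in row 1 of the slide and the CON arrays in row 2, so the row of the slide and the feeding cannot be told apart.

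No barrier lipid gene passed the threshold between the feeding groups (limma, Benjamini-Hochberg over all tested genes), as was the case for nearly all genes: 1 of 12570, or 0.00796%, passed, a count that was 21 without CON calf 14 and 7 without HAY calf 9. CERS3 and DEGS1 had lower values in every HAY calf than in any CON calf. The groups did not overlap in 2 of the 9 genes, beside 11.8% of all tested genes (5.3% lower and 6.53% higher in HAY). At an unadjusted limma p under 0.05 stood the same 2 genes, beside 13.9% of all tested genes (7.17% lower and 6.78% higher in HAY). CERS3, well above background on 2 HAY and 4 CON arrays, could not have met the filter of 3 arrays without the CON group. This favours lower HAY values and no overlap. With all 7 arrays required to be well above background, CERS3 was not tested. The groups then did not overlap in 1 of 8 genes, beside 11.5% of all tested genes. The median log2 difference over the 9 genes was -0.08, beside 0.03 over all tested genes, with 3 genes above and 6 below 0. Without HAY calf 9 the groups did not overlap in 4 genes, the others being SPTLC1 and SPTLC2, and the share over all genes tested at that setting was 31.0%. Without CON calf 14 the median was 0.14. The number of arrays limits the precision of every comparison.

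**Figure D1:**
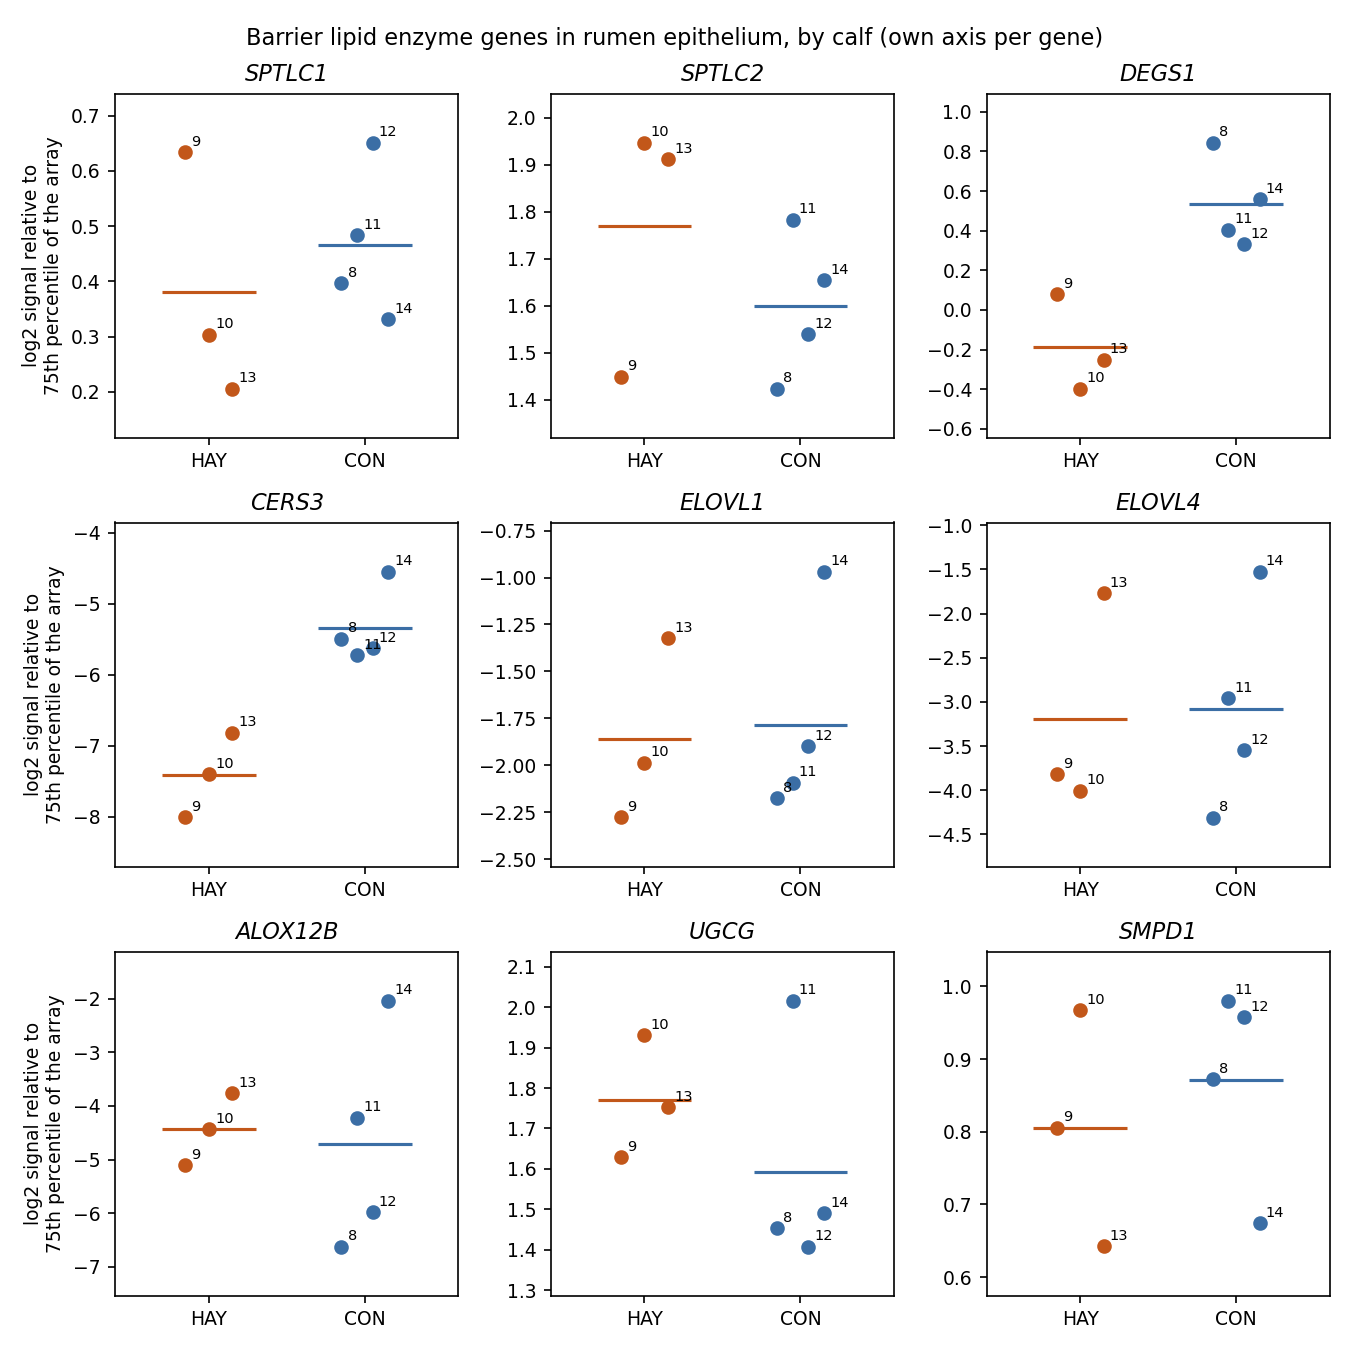
Log2 signal of the 9 barrier lipid genes relative to the 75th percentile of the array, 1 point per calf (number beside it), HAY left of CON, with the group mean as a line and a separate axis for each gene. CERS3 and DEGS1 are the genes whose groups do not overlap, and CON calf 14 is the highest point for ALOX12B, ELOVL1, ELOVL4 and CERS3.

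SPTLC1 and SPTLC2 encode the subunits of serine palmitoyltransferase, the enzyme of the first and committed step of sphingolipid synthesis. SPTLC1 stood at 0.63, 0.30 and 0.21 in HAY calves 9, 10 and 13, against 0.40, 0.48, 0.65 and 0.33 in CON calves 8, 11, 12 and 14. The groups overlapped, with HAY calf 9 next to the highest CON calf. The log2 difference was -0.08 (SE 0.16, 95% interval -0.45 to 0.28, limma adjusted p = 0.850). SPTLC2 stood at 1.45, 1.95 and 1.91 in the HAY calves and at 1.42, 1.78, 1.54 and 1.65 in the CON calves. Here HAY calf 9 was the low one of its group, and the groups overlapped through it. The difference was 0.17 (SE 0.17, 95% interval -0.23 to 0.57, limma adjusted p = 0.703). The whole range over the 7 calves was 1.36-fold for SPTLC1 and 1.44-fold for SPTLC2.

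DEGS1, the desaturase that turns dihydroceramide into ceramide, stood at 0.08, -0.40 and -0.25 in HAY calves 9, 10 and 13, against 0.84, 0.41, 0.33 and 0.56 in CON calves 8, 11, 12 and 14. All 3 HAY calves lay below all 4 CON calves. The HAY mean was -0.19 ± 0.24 (SD, n = 3) and the CON mean 0.54 ± 0.23 (SD, n = 4), which is 1.65-fold lower in HAY (log2 difference -0.72, SE 0.18, 95% interval -1.15 to -0.30). It did not pass the threshold (limma adjusted p = 0.224, unadjusted p = 0.00482). The probe was bright, with signals of 1992.3, 1433 and 1840.3 units in the HAY calves, against 3321.1, 2474, 1920.2 and 2889.3 units in the CON calves before scaling. Within the slide columns that held both groups, the difference was -0.32 between HAY calf 9 and CON calf 11, -0.73 between HAY calf 10 and CON calf 12, and -0.81 between HAY calf 13 and CON calf 14. A fit with slide column as a block sets aside CON calf 8, whose column held no HAY array, and gave -0.62 (adjusted p = 0.233). DEGS2, the related enzyme that also hydroxylates the sphingoid base to form phytoceramide, stood at 1.87, 2.27 and 2.63 in the HAY calves and at 1.67, 1.61, 1.53 and 2.08 in the CON calves. CON calf 14 lay above HAY calf 9, so the groups overlapped, and the difference was 0.53 (SE 0.22, limma adjusted p = 0.349), or 0.35 without HAY calf 13.

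CERS3, the ceramide synthase that joins ultra-long acyl chains to the sphingoid base in epidermis and testis, stood at -8.01, -7.40 and -6.81 in HAY calves 9, 10 and 13, against -5.49, -5.73, -5.63 and -4.55 in CON calves 8, 11, 12 and 14. The highest HAY calf lay more than 1 log2 unit below the lowest CON calf. The HAY mean was -7.41 ± 0.60 (SD, n = 3) and the CON mean -5.35 ± 0.54 (SD, n = 4), which is 4.17-fold lower in HAY (log2 difference -2.06, SE 0.37, 95% interval -2.92 to -1.20). It did not pass the threshold (limma adjusted p = 0.164, unadjusted p = 0.000637). The probe was dim, with signals of 7.3, 11.1 and 19.4 units in the HAY calves, against 41.1, 35.3, 30.9 and 83.6 units in the CON calves. It exceeded background clearly in 2 of 3 HAY calves, the exception being calf 9, and in 4 of 4 CON calves. Correcting the background by normexp, which adds an offset that narrows differences at low signal, gave -0.79 (adjusted p = 0.198). Within slide columns, the difference was -2.28 between HAY calf 9 and CON calf 11, -1.78 between HAY calf 10 and CON calf 12, and -2.26 between HAY calf 13 and CON calf 14. With the slide column as a block, it was -2.11 (adjusted p = 0.0785).

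**Figure D2:**
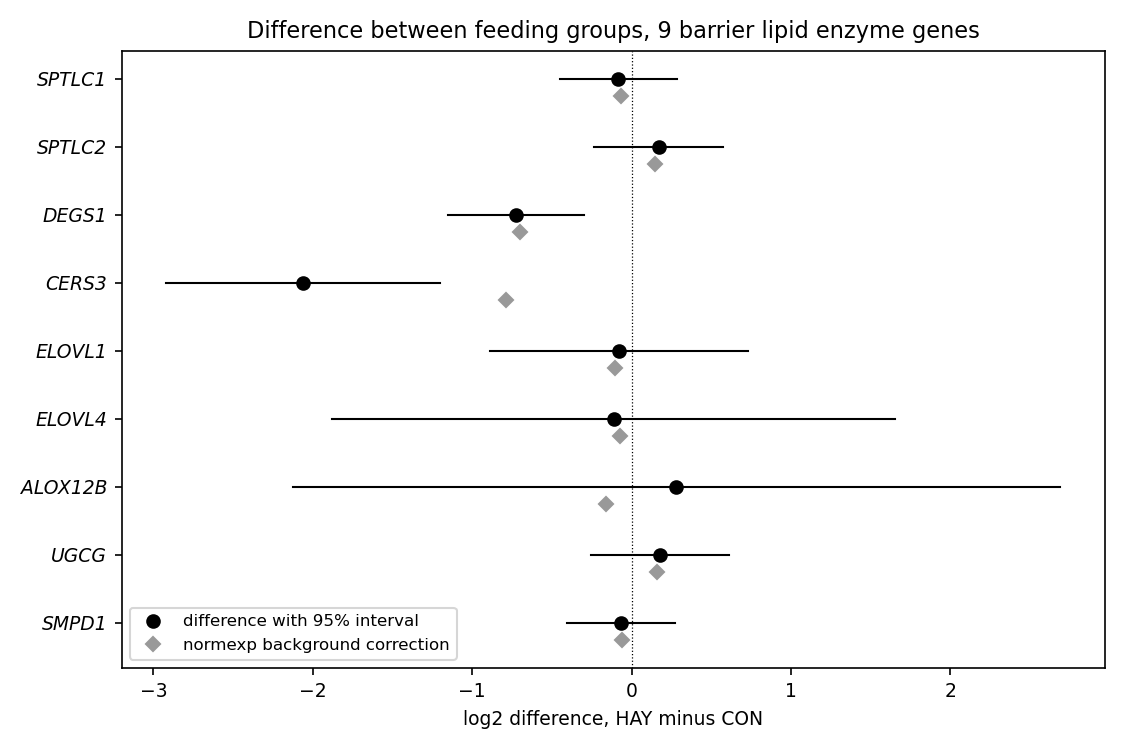
Log2 difference, HAY minus CON, of each of the 9 genes (circle) with its 95% interval from limma (line), and the same difference after normexp background correction (diamond). The intervals of CERS3 and DEGS1 lie below 0, normexp brings CERS3 to -0.79, and the interval of ALOX12B is the widest.

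Marker genes of other cells also had mostly lower values in HAY, as CERS3 and DEGS1 did. All 12 tested smooth muscle markers had lower values in HAY (median log2 difference -1.23), with a mean level of -3.38 to -2.39 in the HAY calves and -2.33 to -0.73 in the CON calves. All 14 tested fibroblast markers were lower too (median -1.47), with mean levels of -2.11 to -0.33 in HAY and -0.78 to 0.999 in CON. Of 14 endothelial markers, 12 were lower (median -0.75), with mean levels of -3.28 to -2.02 in HAY and -2.24 to -1.69 in CON. Of 16 leukocyte markers, 11 were lower (median -0.93), with mean levels of -2.60 to -2.37 in HAY and -2.27 to -1.54 in CON. None passed the threshold, and 7, 8, 3 and 9 of these lists stood at an unadjusted p under 0.05, all lower in HAY, beside 7.17% of all tested genes. These counts changed, to unlike degrees, when 1 calf at a time was left out. For smooth muscle markers they were 3 to 8 (3 without HAY calf 10, 4 without HAY calf 13 or CON calf 11). For fibroblast markers they were 1 to 12 (1 without HAY calf 13, 2 without HAY calf 10, 5 without CON calf 8). For endothelial markers they were 1 to 10 (10 without HAY calf 9, 1 without HAY calf 13 or CON calf 12, 6 without CON calf 14). The leukocyte count stayed between 7 and 11. These leave-out counts take either direction. The share of all tested genes in either direction then ranged from 7.70 to 18.6%, beside 13.9% with all calves. The endothelial median was -0.37 without HAY calf 13, and the smooth muscle median -0.77 without CON calf 8. T cell markers were mixed. CD3E cleared background in 0 of 3 HAY calves and in 3 of 4 CON calves, so it passed the filter only through the CON arrays. CD8A differed by -0.97, but CD3D differed by 0.33 and CD2 by 0.11. The 9 basal keratinocyte markers had a median of 0.03 with 5 above and 4 below 0. Of 20 suprabasal and cornified markers, 8 were above and 12 below 0 (median -0.35), with mean levels of -2.14 to -1.56 in HAY and -1.85 to -0.84 in CON. At an unadjusted p under 0.05 stood 4 of them, 1 higher and 3 lower in HAY, and the median was 0.0015 over the 16 that were well above background on all 7 arrays. The 3 lower ones, named after their values were seen, were KLK7, a protease of the cornified layer, KRT4, a keratin of suprabasal mucosal cells, and KRTDAP, a secreted protein of differentiating keratinocytes, and none overlapped between groups. KLK7 and KRT4 cleared background in 0 of 3 HAY calves and in 4 of 4 CON calves. They thus passed the filter only through the CON arrays, which favours lower HAY values and no overlap. KRTDAP, well above background on all 7 arrays, differed by -2.02 (limma adjusted p = 0.216). The part of these cells and markers in the CERS3 and DEGS1 differences was not tested.

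ELOVL1 and ELOVL4 are elongases of very long-chain fatty acids, ELOVL4 being the one that makes the ultra-long chains of acylceramides in human and mouse skin. ELOVL4 stood at -3.82, -4.00 and -1.76 in HAY calves 9, 10 and 13, against -4.31, -2.96, -3.55 and -1.52 in CON calves 8, 11, 12 and 14. One calf of each group, HAY calf 13 and CON calf 14, lay far above the others, and the groups overlapped over nearly their whole range. The log2 difference was -0.11 (SE 0.76, 95% interval -1.88 to 1.65, limma adjusted p = 0.964), and the range over the calves was 6.89-fold. Leaving out 1 calf at a time gave differences between -0.83 and 0.41, and the slide column as a block gave -0.52 (unadjusted p = 0.0341, adjusted p = 0.307). With that block 3 of the 9 genes, ELOVL4 besides CERS3 and DEGS1, stood at an unadjusted p under 0.05, beside 14.4% of all tested genes. Within slide columns, ELOVL4 differed by -0.87 between HAY calf 9 and CON calf 11, by -0.46 between HAY calf 10 and CON calf 12, and by -0.24 between HAY calf 13 and CON calf 14. ELOVL1 stood at -2.28, -1.99 and -1.32 in the HAY calves and at -2.18, -2.09, -1.90 and -0.97 in the CON calves. The same calves were highest in their groups, within a narrower range of 2.48-fold. The difference was -0.08 (SE 0.35, 95% interval -0.89 to 0.73, limma adjusted p = 0.942), and the differences within the same slide columns were -0.19, -0.09 and -0.35. The second probe named ELOVL1 stood at -2.47, -1.98 and -1.12 in the HAY calves and at -2.07, -2.32, -1.85 and -1.67 in the CON calves, with a difference of 0.13 (SE 0.32, limma adjusted p = 0.897 over all probes). Although annotated to another gene, it followed the first over the 7 calves, with a Pearson r of 0.791 (exact permutation p = 0.0325), a Spearman rho of 0.929 (exact permutation p = 0.00675) and an r of 0.846 without HAY calf 13 and CON calf 14.

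ALOX12B, the lipoxygenase that begins the oxidation of acylceramide linoleate, varied most between calves before normexp. It stood at -5.11, -4.43 and -3.77 in HAY calves 9, 10 and 13, against -6.63, -4.22, -5.99 and -2.03 in CON calves 8, 11, 12 and 14. The CON calves held both the lowest and the highest value and enclosed all HAY calves. The HAY mean was -4.44 ± 0.67 (SD, n = 3) and the CON mean -4.72 ± 2.06 (SD, n = 4) (log2 difference 0.28, SE 1.03, 95% interval -2.13 to 2.69, limma adjusted p = 0.930). Its SD within groups, 1.65, exceeded that of 99.4% of tested genes, whose median was 0.27, and its range over the calves was 24.1-fold. This spread depended on the background at low signal. With normexp, ALOX12B ran from -4.41 in CON calf 8 to -1.93 in CON calf 14. That is close to the spread of ELOVL4, which then ran from -3.65 to -1.51 in the same calves. The direction of the ALOX12B difference was not settled: it was -0.16 with normexp, -0.36 without CON calf 8 and 1.18 without CON calf 14. The probe was well above background on all 7 arrays, with signals of 54.6, 87.5 and 160.9 units in the HAY calves and 18.7, 100.3, 24.1 and 479.1 units in the CON calves.

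UGCG, the glucosyltransferase that makes glucosylceramide, stood at 1.63, 1.93 and 1.75 in HAY calves 9, 10 and 13, against 1.45, 2.02, 1.41 and 1.49 in CON calves 8, 11, 12 and 14. The HAY calves lay above 3 of the CON calves and below CON calf 11. The log2 difference was 0.18 (SE 0.19, 95% interval -0.26 to 0.61, limma adjusted p = 0.710), and 0.32 without CON calf 11 (adjusted p = 0.429). SMPD1, the acid sphingomyelinase, stood at 0.81, 0.97 and 0.64 in the HAY calves and at 0.87, 0.98, 0.96 and 0.67 in the CON calves. It had the narrowest range of the 9 genes, 1.26-fold over the calves, and the groups overlapped almost entirely. The difference was -0.07 (SE 0.15, 95% interval -0.40 to 0.27, limma adjusted p = 0.877).

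The genes thus differed in how much they varied from calf to calf. The SD within groups was 1.65 for ALOX12B, 1.21 for ELOVL4, 0.56 for CERS3 and 0.53 for ELOVL1, and lay between 0.15 for SMPD1 and 0.24 for UGCG in the other 5 genes. In all 4 variable genes HAY calf 13 was highest of the HAY calves and CON calf 14 highest of the CON calves. SMPD1 and SPTLC1 were lowest in these same calves. These genes were grouped after their values were seen. With normexp the spread of CERS3, read by a dim probe, narrowed. It stood at -4.85, -4.68 and -4.73 in HAY calves 9, 10 and 13, so calf 10 was the highest. CON calves 8, 11, 12 and 14 stood at -4.06, -4.15, -4.10 and -3.57. Without normexp, HAY calf 13 exceeded its group mean by 0.67 for ALOX12B, 1.43 for ELOVL4, 0.54 for ELOVL1 and 0.59 for CERS3. CON calf 14 exceeded its group mean by 2.68 for ALOX12B, 1.56 for ELOVL4, 0.81 for ELOVL1 and 0.80 for CERS3. These calves also had the lowest mean level of fibroblast markers in their groups, -2.11 in HAY calf 13 and -0.78 in CON calf 14, and of smooth muscle markers, -3.38 and -2.33. The same held for endothelial markers, at -3.28 and -2.24, and leukocyte markers, at -2.60 and -2.27. For smooth muscle markers CON calf 12 was close to CON calf 14, at -2.29. Basal keratinocyte markers were also lowest of the HAY calves in calf 13, at 1.17 against 1.80 in calf 9 and 1.79 in calf 10. In CON calf 14 they stood at 1.57, within the CON range of 1.45 to 1.64. The suprabasal markers had their lowest HAY mean in calf 13, at -2.14, and their highest CON mean in calf 14, at -0.84. The low mean of HAY calf 13 depended on 1 gene, KRT36. It stood at 2.53, -0.52 and -6.45 in HAY calves 9, 10 and 13, so calf 13 was not low across the suprabasal markers. The part of these levels in the calf pattern was not tested.

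**Figure D3:**
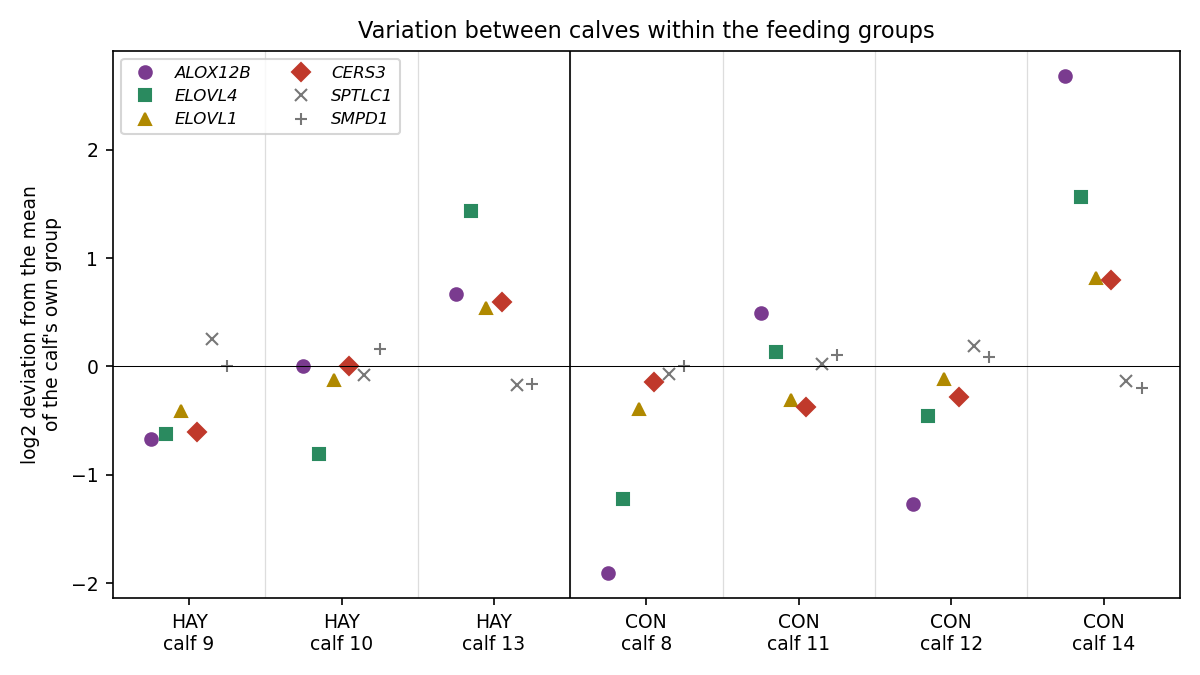
Log2 deviation of 6 genes from the mean of the calf's own feeding group, 1 column per calf, HAY left of CON. ALOX12B, ELOVL4, ELOVL1 and CERS3 (filled symbols) are highest in HAY calf 13 and CON calf 14 of their groups. SPTLC1 and SMPD1 (crosses) stay within 0.253 of the group mean. With normexp, not drawn, CERS3 was highest of the HAY calves in calf 10.

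Among the 36 pairs of the 9 genes, 3 had an unadjusted exact permutation p under 0.05 for Pearson's r over the 7 calves, all among ALOX12B, ELOVL4 and ELOVL1, and none passed after adjustment. ALOX12B with ELOVL4 had r = 0.849 (exact permutation p = 0.0105, adjusted p = 0.236) and rho = 0.857 (exact permutation p = 0.0238, adjusted p = 0.614), and r = 0.619 without CON calves 8 and 14. ELOVL1 with ELOVL4 had r = 0.907 (exact permutation p = 0.0131, adjusted p = 0.236) and rho = 0.750 (exact permutation p = 0.0663, adjusted p = 0.625). It rests on HAY calf 13 and CON calf 14, since r was 0.234 without them. ALOX12B with ELOVL1 had r = 0.800 (exact permutation p = 0.0280, adjusted p = 0.336) and rho = 0.679 (exact permutation p = 0.110, adjusted p = 0.625), and r = 0.459 without CON calves 8 and 14. After centring within groups the 3 values of r were 0.860, 0.907 and 0.815. CERS3 had an r of 0.481 with ELOVL1 (exact permutation p = 0.285, adjusted p = 0.603) and rho = 0.464 (exact permutation p = 0.302, adjusted p = 0.726). Without HAY calf 13 and CON calf 14, the uncentred r was 0.383. After centring within groups r was 0.953 over all 7 calves, which was neither tested nor repeated without those calves. The centred r of CERS3 was also 0.801 with ELOVL4, 0.728 with ALOX12B, -0.821 with SPTLC1 and -0.758 with SMPD1. Genes most like ALOX12B and CERS3 were taken as those with the highest r among tested genes with a value on every array. They are given as a description, and names that are only a locus number or a similar identifier were left out. The genes most like ALOX12B were NIF3L1 (r = 0.988), GINM1 (r = 0.974) and NELFE (r = 0.970). Those most like CERS3 were TLN1, which links integrins to actin (r = 0.986), B4GALT1, a galactosyltransferase (r = 0.977), and CCR7, a chemokine receptor of lymphocytes and dendritic cells (r = 0.960).

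The other genes of sphingoid base and ceramide synthesis, 12 of 14 listed, were mostly above 0, with 10 positive and 2 negative differences (median 0.20, beside 0.03 over all tested genes, 54.5% of which were positive). None passed the threshold, and 2 stood at an unadjusted p under 0.05, both higher in HAY: SPTSSB and DEGS2. That is 16.7%, beside 13.9% of all tested genes. The count was 0 without HAY calf 10 or CON calf 8, where the share of all tested genes was 7.81% and 9.56%. It was 1 without HAY calf 13 or CON calf 12, where that share was 7.70% and 10.9%. SPTSSB, a small activating subunit of serine palmitoyltransferase, stood at 2.36, 2.07 and 1.57 in HAY calves 9, 10 and 13, against 0.84, 1.51, 1.64 and 0.94 in CON calves 8, 11, 12 and 14. Only HAY calf 13 and CON calf 12 overlapped (log2 difference 0.77, SE 0.27, limma adjusted p = 0.300).

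Among the other genes of fatty acid elongation and activation, 14 of 15 listed were tested, with 6 positive and 8 negative differences (median -0.05) and none past the threshold. An unadjusted p under 0.05 was reached by 6, 2 higher and 4 lower in HAY, which is 42.9%, beside 13.9% of all tested genes. Without HAY calf 10 it was reached by 3, beside 7.81% of all tested genes. ACSL5, an acyl-CoA synthetase, stood at -1.20, -1.49 and -1.82 in HAY calves 9, 10 and 13, against -0.06, 0.02, -0.30 and -0.62 in CON calves 8, 11, 12 and 14, without overlap (log2 difference -1.26, SE 0.22, limma adjusted p = 0.164). ELOVL7, an elongase of long saturated chains, stood at -2.02, -4.35 and -5.03 in the HAY calves and at 0.13, 0.09, -1.76 and -0.21 in the CON calves, again without overlap (difference -3.36, SE 0.76, limma adjusted p = 0.210). Thus an elongase outside the list of barrier genes had a larger difference than ELOVL1 or ELOVL4. ACSL1, another acyl-CoA synthetase, was higher in every HAY calf (-0.26, -1.36 and -0.91) than in any CON calf (-1.42, -1.84, -1.61 and -1.90), with a difference of 0.85 (SE 0.27, limma adjusted p = 0.270) and of 0.56 without HAY calf 9. ACSL4 had a difference of -0.52 (SE 0.17, limma adjusted p = 0.273) from a dim probe, and of -0.21 with normexp.

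The other genes of acylceramide synthesis and the lipid envelope gave 8 positive and 1 negative differences over 9 tested of 11 listed (median 0.29), none at an unadjusted p under 0.05. The largest belonged to LIPN, a lipase of differentiating keratinocytes, at 0.98 (SE 0.48, limma adjusted p = 0.406), and to ABCA12, the lipid transporter that loads lamellar bodies, at -0.89 (SE 0.94, limma adjusted p = 0.714). ABCA12 stood at -7.50, -5.32 and -5.93 in HAY calves 9, 10 and 13, against -7.35, -4.56, -6.08 and -3.45 in CON calves 8, 11, 12 and 14. As for ALOX12B, CON calf 14 was the highest and CON calf 8 the lowest of the CON calves. Leaving out HAY calf 9 gave a difference of -0.27, leaving out CON calf 8 gave -1.55, and leaving out CON calf 14 gave -0.26. Over the whole list, 7 differences were positive and 2 negative with normexp (median 0.17). Without HAY calf 13 they were 6 and 2 over 8 tested genes (median 0.13). Without CON calf 8 and HAY calf 13 they were 5 and 3 (median 0.10).

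Of the 5 other lipoxygenases, all tested, 3 had lower values in HAY at an unadjusted p under 0.05, beside 7.17% of all tested genes, and none passed the threshold. The count was 1 without HAY calf 9 or CON calf 11, where 18.6% and 12.8% of all tested genes were counted in either direction. ALOX12 stood at -5.87, -4.75 and -4.74 in HAY calves 9, 10 and 13, against -4.02, -4.09, -4.57 and -4.42 in CON calves 8, 11, 12 and 14, without overlap (log2 difference -0.85, SE 0.31, limma adjusted p = 0.304, and -0.47 without HAY calf 9). ALOX5, the leukotriene-forming enzyme of myeloid cells, had a difference of -0.86 (SE 0.25, limma adjusted p = 0.256) and ALOX15 of -0.93 (SE 0.33, limma adjusted p = 0.300). With normexp the differences were -0.50 for ALOX12, -0.42 for ALOX5 and -0.35 for ALOX15. ALOX15B, which neighbours ALOX12B on chromosome 19 in assembly ARS-UCD2.0, stood at -3.32, -3.19 and -1.92 in the HAY calves and at -4.53, -4.08, -3.67 and -2.38 in the CON calves. HAY calf 13 and CON calf 14 were again the highest of their groups, and the difference was 0.85 (SE 0.55, limma adjusted p = 0.517).

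Of the 21 tested of 22 other genes that form and break down glucosylceramide and sphingomyelin, 16 had positive and 5 negative differences (median 0.12), and 2 stood at an unadjusted p under 0.05, which is 9.52%, beside 13.9% of all tested genes. With normexp, 11 were positive and 10 negative (median 0.03). The count of 2 was 1 without HAY calf 10, CON calf 8 or CON calf 12, beside 7.81%, 9.56% and 10.9% of all tested genes. It was 4 without CON calf 14, beside 16.5%. B4GALT5, which adds galactose to glucosylceramide to form lactosylceramide, stood at 0.25, 0.79 and 0.64 in HAY calves 9, 10 and 13, against -0.67, 0.22, -0.56 and -0.64 in CON calves 8, 11, 12 and 14. The groups did not overlap, although HAY calf 9 and CON calf 11 nearly met (log2 difference 0.97, SE 0.26, limma adjusted p = 0.234). SGPP1, a phosphatase of sphingosine phosphate, had a difference of -0.95 (SE 0.38, limma adjusted p = 0.340), and of -0.49 without CON calf 8 and HAY calf 13.

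**Figure D4:**
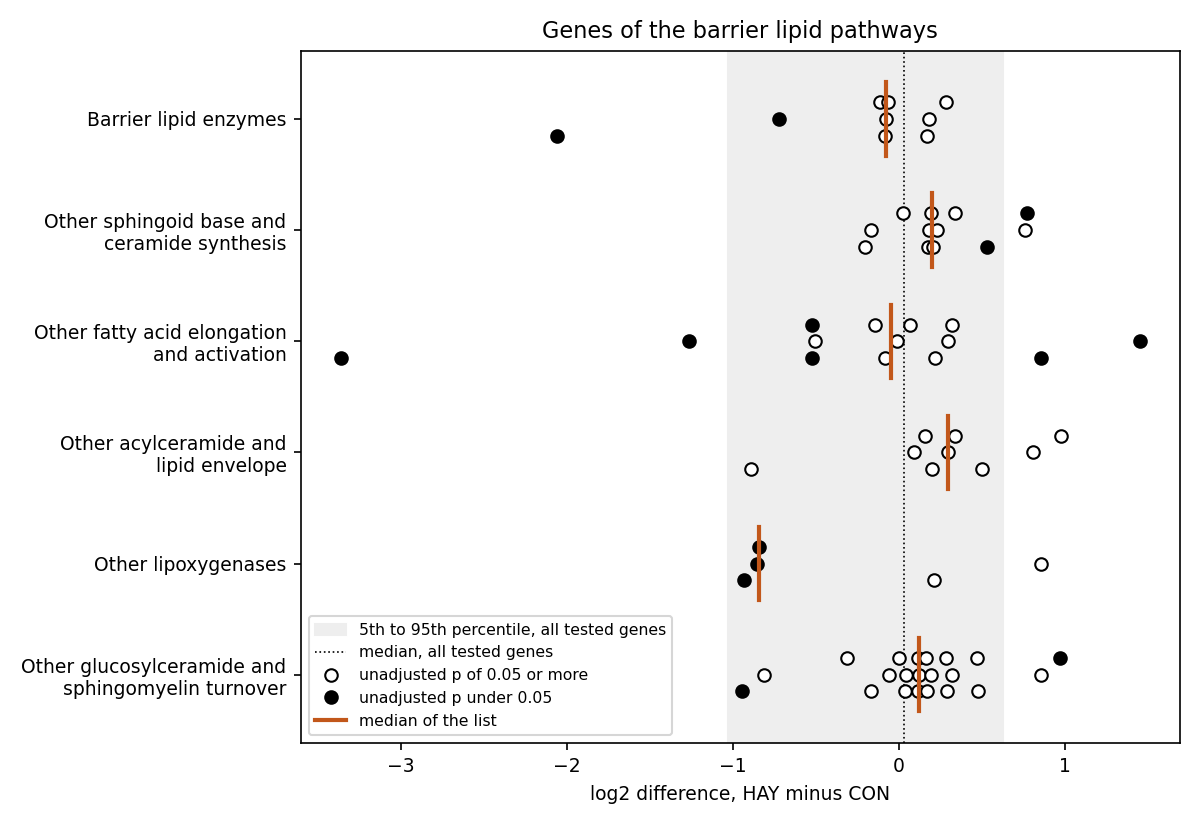
Log2 difference, HAY minus CON, of every tested gene of the barrier lipid lists (1 circle per gene, filled at an unadjusted limma p under 0.05), with the median of each list as an orange bar. The grey band is the range from the 5th to the 95th percentile of all tested genes (-1.03 to 0.63), and CERS3 (-2.06), ACSL5 (-1.26) and ELOVL7 (-3.36) lie below it, while 9 genes lie above it, the highest being ELOVL3 (1.45).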

How the data were processed

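Total RNA of rumen epithelium was labelled with Cy3 and hybridised to 1 array per calf, per the labels' protocols. The scanner files deposited by the authors hold the intensity of each spot on a linear scale, with background already subtracted, per the file headers. Agilent Feature Extraction 9.5 is named in the submitters' processing notes. The series table deposited by the authors has log2 values, which matched the same signals minus the 75th percentile of the array (Pearson r of at least 0.9999998 over probes), and its column medians were -3.20 to -3.08. That table served as an alternative.

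Control spots and outlier spots were left out, log2 signals of repeated spots were averaged, and each array's 75th percentile was subtracted. RefSeq accessions matched 11682 probes to a gene table (ARS-UCD2.0, names only), and 755 symbols were updated. Coordinates are those of the files, on UMD_3.1. Probes well above background on at least 3 arrays were kept, with the brightest probe per gene. Groups were compared with limma 3.58.1 in R 4.3.3 with Benjamini-Hochberg adjustment at 0.05, after a check of the fit on simulated data. Relations between genes used exact permutation over all 5040 orders of the calves. Each calf is 1 replicate. The members and lists were chosen with earlier results of these data known. Besides the members, up to 4 genes per list with the smallest unadjusted p under 0.05 were named, or otherwise the 2 with the largest difference, and ALOX15B, ELOVL3, the named T cell and lower suprabasal markers and, for its likeness to ALOX12B over calves, the profile of ABCA12 were chosen after their values were seen. Alternatives were normexp (offset 50), quantile and median scaling, other filters, the mean of probes, the slide column as a block, and leaving out calves. Array row was not fitted.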

Additional observations from a re-analysis of the deposited data

Results flagged for a closer look

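UGCG in CON calf 11 stood at 2.02, apart from the other CON calves at 1.45, 1.41 and 1.49, by a wider gap than Dixon's test allows for 4 values. Chance marks about 1 in 20 such groups, and 10 probes were examined.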

How the results depend on the processing

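None of the 9 genes passed the threshold under any of the 16 alternatives, and CERS3, DEGS1, UGCG and SPTLC2 kept their direction in all of them in which they were tested. CERS3 ranged from -2.41 to -0.79 and DEGS1 from -0.86 to -0.59, with limma adjusted p-values of 0.0785 to 0.485 and of 0.128 to 0.838. CERS3 was not tested when all 7 arrays had to be well above background, which left 1 gene without overlap. The median of the 9 genes was -0.48 without CON calf 8 and HAY calf 13, and -0.21 to 0.14 when 1 calf was left out. The genes without overlap were then 2 to 4, the 4 without HAY calf 9, where the smaller group also raised the share of all tested genes without overlap to 31.0%. The count past the threshold among all genes was 4 with quantile normalization, 2 with the slide column as a block and 1 to 21 when 1 calf was left out (2 on leaving out HAY calf 13, 7 on leaving out HAY calf 9, 4 on leaving out CON calf 8 and 21 on leaving out CON calf 14). ALOX12B turned to -0.16 with normexp, -0.36 with the slide column as a block and -0.69 without CON calf 8 and HAY calf 13. ELOVL1 turned to 0.023 with the mean of its probes and 0.13 with the second probe, an alternative chosen after seeing the data. SMPD1 turned to 0.016 without CON calf 8 and HAY calf 13. When 1 calf was left out, ALOX12B ranged from -0.36 to 1.18, ELOVL1 from -0.35 to 0.19, ELOVL4 from -0.83 to 0.41, SMPD1 from -0.15 to 0.016 and SPTLC1 from -0.21 to 0.0036. The cause was not tested. No paired analysis was possible because the labels give the groups different calf numbers, and the block used was the slide column. CERS3 and ABCA12 were not well above background on 1 HAY array each, so the sizes of their log2 differences are uncertain. For CERS3 the difference was smaller with normexp, at -0.79.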
